A study of Mus musculus with 6 samples.

Results

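Dense clusters of accessible sites were examined in the ATAC-seq peaks of cohesin-haploinsufficient mouse bone marrow. ATAC-seq uses the Tn5 transposase to cut and tag open DNA, so that a peak marks an accessible site. The cells were hematopoietic stem and progenitor cells, per the labels, from marrow depleted of mature lineages. One group carried inv(16) with Smc3 D/+ (Smc3 het, 3 libraries) and the other inv(16) with Smc3 +/+ (Smc3 wt, 3 libraries). Both groups therefore carried inv(16), and per the labels all mice were treated by viral transduction and by tamoxifen induction of Cre. The sources used here do not give the promoter that drives Cre, the number of animals or their ages. For each genotype there is 1 deposited peak list, so no difference has a replicate check, none carries a p-value, and a genotype cannot be told apart from whatever else differed between the lists.

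The clusters were built from the Smc3 het list alone. Of its 47233 peaks, 34352 lay on chromosomes 1 to 19 with a summit more than 1 kb from every end of a protein-coding gene, and these are called distal here. Neighbouring distal peaks were joined across every gap narrower than 12505 bp, which was the narrowest gap between neighbours not joined. Joined groups of 5 or more peaks were kept, which gave 560 clusters with 4057 member peaks, or 8.59% of the list and 11.8% of the distal peaks. The remaining 30295 distal peaks served for comparison. The number, spacing and Smc3 het strength of the members follow from the way they were chosen and are given as a description. The Smc3 wt list played no part in the choice.

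Enhancers are distal sites where transcription factors bind and raise the activity of a gene that may lie far away. Large groups of enhancers, often called super-enhancers, are known to gather at genes that define a cell type, and in blood progenitors ETS, RUNX and AP-1 factors are among those that bind them. Cohesin, the ring complex whose core holds the Smc3 protein, extrudes DNA loops that bring such sites and promoters together. The inversion inv(16) of human acute myeloid leukemia fuses the core-binding factor gene CBFB to MYH11, and the fusion protein disturbs RUNX1, its DNA-binding partner. The title of the study names Fli1, an ETS factor of blood stem cells, as its subject. A cluster of accessible sites is not by itself a super-enhancer, which is defined from other measurements. Multi-copy sequence can also appear as a dense cluster, because reads of many copies pile up at those in the reference.

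Sequence was read at members that share at least 1 bp with a RefSeq start window, which is then said to lie under the member. RefSeq start windows, which run from 250 bases before to 50 bases after a transcript's start, lay under 194 members (4.78%, interval 4.15 to 5.48), against 4.56% of the other distal peaks. Such starts can be distal because they are inner starts of a gene or starts of noncoding RNAs. The windows of 4 members are shown to set a member found in both genotypes beside one found in Smc3 het only. They are RefSeq sequences of GRCm38.p6, the assembly of mm10, written 5′ to 3′ on the strand of the gene, and capitals mark, on either strand, the ETS core GGAAG, the RUNX letters TGTGGT and the AP-1 letters TGACTCA. The genes were chosen after their values were seen.
Elf1, chr14:79515424-79515723, + strand: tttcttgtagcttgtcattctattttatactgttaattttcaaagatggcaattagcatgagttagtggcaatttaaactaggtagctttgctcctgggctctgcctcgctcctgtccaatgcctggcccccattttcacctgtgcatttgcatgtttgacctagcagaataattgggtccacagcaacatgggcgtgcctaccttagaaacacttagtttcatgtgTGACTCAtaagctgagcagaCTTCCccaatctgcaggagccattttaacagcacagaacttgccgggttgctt
Morrbid, chr2:128429302-128429601, - strand: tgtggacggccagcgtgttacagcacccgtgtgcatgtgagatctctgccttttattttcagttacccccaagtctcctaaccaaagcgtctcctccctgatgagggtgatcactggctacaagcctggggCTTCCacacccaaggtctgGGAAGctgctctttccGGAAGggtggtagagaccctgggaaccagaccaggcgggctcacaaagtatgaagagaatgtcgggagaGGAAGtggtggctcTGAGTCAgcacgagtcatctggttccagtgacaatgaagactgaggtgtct
Stat5a, chr11:100860234-100860533, + strand: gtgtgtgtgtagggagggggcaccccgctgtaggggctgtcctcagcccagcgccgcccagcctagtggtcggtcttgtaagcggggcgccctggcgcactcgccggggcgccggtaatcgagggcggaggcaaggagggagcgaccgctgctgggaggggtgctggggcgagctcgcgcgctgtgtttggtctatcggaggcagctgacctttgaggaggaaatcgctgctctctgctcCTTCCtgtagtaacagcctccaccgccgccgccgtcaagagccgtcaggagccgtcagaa
Mir22hg, chr11:75461289-75461588, + strand: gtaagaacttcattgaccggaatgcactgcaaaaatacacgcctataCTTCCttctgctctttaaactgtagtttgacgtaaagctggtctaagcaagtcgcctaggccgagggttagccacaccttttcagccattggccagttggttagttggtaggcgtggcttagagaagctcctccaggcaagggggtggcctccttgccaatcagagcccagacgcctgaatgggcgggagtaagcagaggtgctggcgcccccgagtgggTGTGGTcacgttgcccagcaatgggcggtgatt

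The Elf1 and Morrbid windows lay under members without a Smc3 wt counterpart. Elf1 encodes an ETS factor of blood cells, and its member (79515568 to 79515868) had a -log10 q of 11.3. Morrbid is a noncoding RNA that in mouse sets the lifespan of myeloid cells by holding down the neighbouring death gene Bcl2l11, and its member had a -log10 q of 16.9. Both windows hold an AP-1 motif. The Stat5a and Mir22hg windows lay under members that overlapped a Smc3 wt peak, with a -log10 q of 38.7 and 86.2 in Smc3 het. Stat5a encodes a transcription factor downstream of cytokine receptors, and Mir22hg is the host transcript of miR-22. Neither of these windows holds an AP-1 motif, and nor does the start window of Runx3, which lay under an unshared member. Over all start windows under members, AP-1 letters were in 16 of 110 under unshared members (14.5%, interval 8.55 to 22.5) and in 10 of 107 under shared ones (9.35%, 4.57 to 16.5), and the intervals overlap. The RUNX letters went the other way, in 13 of 110 (11.8%, 6.45 to 19.4) and 25 of 107 (23.4%, 15.7 to 32.5), also with overlapping intervals.

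AP-1 letters were more frequent in start windows under members than in windows under other distal peaks. Of the 217 windows under members 26 held TGACTCA on either strand (11.98%, interval 7.98 to 17.1), against 90 of 1667 under other distal peaks (5.40%, 4.36 to 6.59) and 5.26% of all 31396 windows. Each motif was searched on both strands as exact letters. The ETS core GGAAG was found in 77.0% of windows under members and 77.0% of those under other distal peaks. The RUNX letters TGTGGT were in 17.5% (12.7 to 23.2) and 15.5%, the GATA-factor letters AGATAA in 7.37% and 6.84%, and CACGTG (E-box) in 9.68% and 10.1%. TTGCGCAA (CEBP) was in 0 and 5 windows. Several windows can belong to 1 gene, and a match is not a binding site. Whole windows were searched, so a match can also lie outside the peak that the window overlaps. Start windows cover few of the members, and sequence at the other members was not analysed here.

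Of 919 microRNA hairpins in the RefSeq table on these chromosomes 24 (2.61%) lay in a cluster and 4 under a member itself. The share is near the 2.62% of protein-coding genes that overlapped a cluster. Shown are 5 mature sequences from hairpins known from blood or leukemia, with both arms of miR-142. The hairpins were chosen among the 24 after their values were seen. The seed (bases 2 to 8), which pairs with target transcripts, is in capitals.
mmu-miR-142a-5p, chr11:87756867-87756887, + strand: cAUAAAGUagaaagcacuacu
mmu-miR-142a-3p, chr11:87756903-87756925, + strand: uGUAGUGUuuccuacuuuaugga
mmu-miR-22-3p, chr11:75463772-75463793, + strand: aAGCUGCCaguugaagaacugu
mmu-miR-21a-5p, chr11:86584120-86584141, - strand: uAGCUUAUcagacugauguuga
mmu-miR-196b-5p, chr6:52230129-52230150, - strand: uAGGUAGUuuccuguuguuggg

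The 5 seeds all differ. The miR-142 hairpin is active mainly in blood cells, and its centre lay 1329 bp from the summit of a shared member. Its cluster held 5 members, of which 3 overlapped a Smc3 wt peak. That cluster overlaps Tspoap1 and lies 22423 bp from Mpo, the myeloperoxidase gene of granulocyte-monocyte progenitors. The centre of the miR-22 hairpin lay 2362 bp from the summit of the strong shared member at the start of its host transcript. Of the 5 members of that cluster 1 was shared. The miR-21a hairpin lay in a cluster of 5 members inside Vmp1, of which 1 was shared. The miR-196b hairpin lay between Hoxa9 and Hoxa10, in a cluster of 5 members of which 1 was shared.

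Most clusters were short runs of modest peaks. Of the 560 clusters 233 held exactly 5 peaks, 63 held 10 or more and 14 held 20 or more, and the largest held 59. Their spans ranged from 3259 bp to 162461 bp, and the gaps inside a cluster had a median of 4659 bp over clusters. Together they spanned 17.7 Mb, of which the members themselves covered 1.59 Mb. The members' authors' fold over background had a median of 2.71, against 2.85 in other distal peaks, and their -log10 q a median of 6.22 against 5.47. At the edge of the rule, 21.7% of the peaks in groups of 4 and 23.5% of those in groups of 5 overlapped a Smc3 wt peak, and their median -log10 q was 6.28 and 5.96. By chromosome, the share of distal peaks that were members was highest on chromosomes 8 (21.8%) and 4 (18.9%) and between 7.24% and 12.9% on the others.

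Most members had no Smc3 wt counterpart, yet more of them had one than other distal peaks did. Of the 4057 members 1114 overlapped a Smc3 wt peak by at least 1 bp (27.5%, exact Clopper-Pearson 95% interval 26.1 to 28.9). The share was 18.3% (17.9 to 18.8) for the other distal peaks, 19.4% for all distal peaks and 30.2% for the whole list. It was 63.8% (62.9 to 64.7) for peaks near gene ends. Members of 1 cluster share a locus, and the intervals cover counting error only. The share was 23.5% in clusters of 5, 25.2% in those of 6 or 7, 25.5% in those of 8 or 9, 30.7% in those of 10 to 19 and 41.7% (37.2 to 46.3) in those of 20 or more.

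The difference from other distal peaks depended on the strength of the peak and on the measure of strength. The Smc3 het list was ranked by -log10 q and divided into 10 equal bands, with band 1 the most significant. In band 1 96.3% (92.2 to 98.6) of the members and 94.5% (93.0 to 95.8) of other distal peaks were shared. In band 5 the shares were 23.6% and 13.6%, and in band 7 they were 12.6% (9.76 to 15.8) and 4.48% (3.82 to 5.23). Ranked by the authors' fold instead, the gap was widest in band 10, with 15.5% of members and 1.42% of other distal peaks. With the other distal peaks weighted to the members' bands by -log10 q, their share was 21.3%. Within clusters, the most significant member was shared in 350 of 560 clusters (62.5%, 58.3 to 66.5) and the least significant in 26 (4.64%, 3.05 to 6.73).

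**Figure D1:**
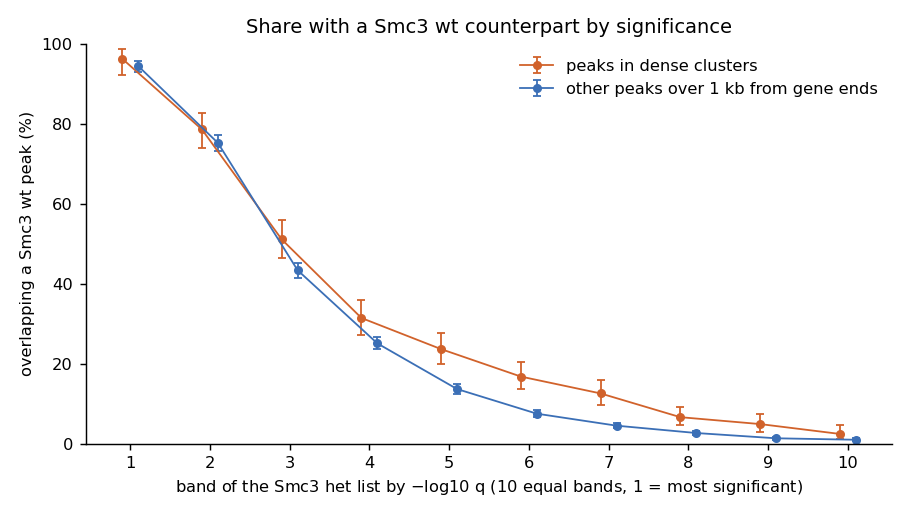
Share of Smc3 het peaks that overlapped a Smc3 wt peak (percent, y axis) in each of 10 equal bands of the Smc3 het list by -log10 q (x axis, 1 is the most significant), for peaks in dense clusters and for other distal peaks, with exact 95% intervals. Both fall steeply, from 96.3% and 94.5% in band 1 to 2.42% and 0.959% in band 10, and the intervals of the pair lie apart in bands 3 to 9.

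Members also lay on raised local background. The peak caller scores a peak against the higher of the genome-wide and the local read density, and the local density can be recovered from the deposited fold and p-value. It was at least 1.2 times the genome-wide value at 55.9% (54.3 to 57.4) of members and 14.2% (13.9 to 14.6) of other distal peaks. It was at least 2 times at 21.1% and 0.782%. Reads of neighbouring peaks add to a local background, so a dense cluster raises it by its own peaks, and it is not independent of the rule. Smc3 wt peaks, which the rule did not use, were read in the same way. Their local background was at least 2 times at 29.6% (27.0 to 32.3) of the 1156 distal ones in the clusters. Outside the clusters it was so at 1.17% (0.912 to 1.47). Dense Smc3 wt peaks also add to their own local background, so this comparison is not free of that effect. Where the Smc3 het local background was under 1.2 times, the shares of members and of other distal peaks were nearly equal, at 14.5% (12.9 to 16.2) and 14.5% (14.1 to 14.9). At 1.2 times or more the shares were 37.7% (35.7 to 39.8) and 41.5% (40.1 to 43.0). In neither range was the share of members above that of other distal peaks.

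A median local background of 2 times or more set apart 62 clusters with 904 members. All 14 clusters of 20 or more peaks were among them. Of their members 42.0% (38.8 to 45.3) were shared, against 23.3% (21.8 to 24.8) of the 3153 members of the other 498 clusters. A Smc3 wt peak lay in 58 of the 62. The median local background of the Smc3 wt peaks there was also 2 times or more in 43, between 1.5 and 2 times in 14 and under 1.2 times in 1, the Atg7 cluster, where 2 of the 3 Smc3 wt peaks lay beyond the stretch of raised Smc3 het background. Of the 498 clusters 97 held no Smc3 wt peak. In the 401 that held one, the median local background of the Smc3 wt peaks was 2 times or more in 5.

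**Figure D2:**
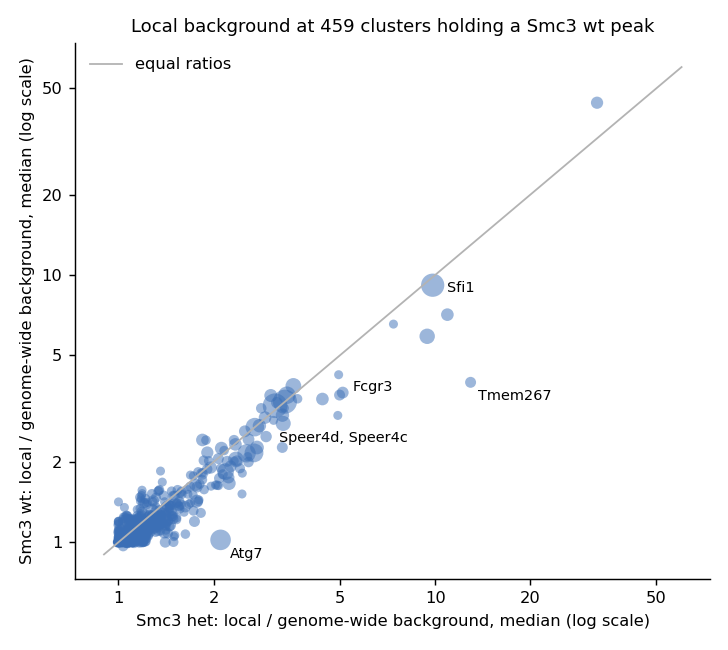
Median local background over the genome-wide background in Smc3 het (x axis) and Smc3 wt (y axis), both log scales, for the 459 clusters that hold a Smc3 wt peak; point area grows with the number of members and the line marks equal ratios. Sfi1 lies near the line at 9.82 and 9.16, while Atg7 stands below it at 2.10 and 1.02, the second value being the median of 3 peaks of which 2 lie beyond the raised stretch.

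Of the 12 largest clusters 10 had 6 to 39 shared members each, and several of these lay in gene families with many copies. The largest held 59 members and 32 Smc3 wt peaks on chromosome 5 (15574750 to 15716095) over Speer4d and Speer4c, members of a multi-copy rodent family expressed in testis. Of its members 39 were shared. The next, over Speer4e on chromosome 5, held 56 members, of which 36 were shared, and 40 Smc3 wt peaks. A cluster of 28 members, 16 of them shared, lay over Gm21149 and Gm21190 between these. The Sfi1 cluster on chromosome 11 (3100173 to 3199899), at a centrosome gene near the start of the mapped chromosome, held 52 members, of which 31 were shared, and 34 Smc3 wt peaks. On chromosome 8, clusters of 33 members at 4930467E23Rik and 32 next to 9530057J20Rik lay among defensin genes, with 12 and 9 members shared. Between the imprinted genes Ube3a and Snrpn on chromosome 7 lay 31 members, of which 15 were shared, and 16 Smc3 wt peaks. On chromosome 1, 25 members over the interferon-induced nuclear body genes Sp110, Sp140 and Sp100 had 6 shared, and 22 at A530032D15Rik had 7. Between the zinc finger genes Zfp978 and Zfp982 on chromosome 4, 10 of 22 were shared. The median local background of these 10 clusters was between 2.18 and 9.82 times the genome-wide value. Reads of near-identical copies cannot be placed with certainty, and how the authors treated reads with several matches is not given in the sources used here, so peak positions in gene families with many copies are uncertain.

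The clusters at Atg7 and Gas8, next in size after that at Sfi1, went the other way. Between the histamine receptor gene Hrh1 and the autophagy gene Atg7 on chromosome 6, and reaching into Atg7 (114499928 to 114660439), lay 40 members. Of these 1, inside Atg7, overlapped 1 of the 3 Smc3 wt peaks there. The Smc3 het local background was 2 times or more at 32 of the 40. These 32 lay between 114499928 and 114632125, before Atg7 itself (114643127 to 114860604). Its median was 2.10 times in the cluster and 1.02 times at the 2 Smc3 het peaks within 50 kb on either side. The 1 Smc3 wt peak inside that stretch, at 114625786, had 1.39 times. The other 2 lay beyond it with at most 1.02 times, and the last 3 Smc3 het members there had at most 1.05 times. The members were weak, with a median -log10 q of 3.32 and a median fold of 2.06.

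Gas8 encodes a subunit of the dynein regulatory complex of cilia. From inside Gas8 towards the GTPase gene Rhou on chromosome 8 (123525902 to 123623863) lay 34 members and no Smc3 wt peak. The local background was 2 times or more at 33 of the 34. These 33 lay between 123538542 and 123623863, outside Gas8 (123518835 to 123536657), over a stretch of 85322 bp. The median was 2.96 times in the cluster, 1.23 times at the 3 Smc3 het peaks within 50 kb and 1.10 times at the 3 Smc3 wt peaks within 50 kb. The -log10 q ranged from 2.41 to 16.4 with a median of 5.27. Many summits lay at near-regular steps, for example at 48.5, 50.3, 51.9, 53.6 and 55.4 kb from the cluster start. Whether the stretch is multi-copy sequence, where reads cannot be placed with certainty, was not tested. The local background in Smc3 wt could be read only where it had a peak. No read depth per library or copy number was analysed here, so whether all 3 libraries share it was not tested.

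**Figure D3:**
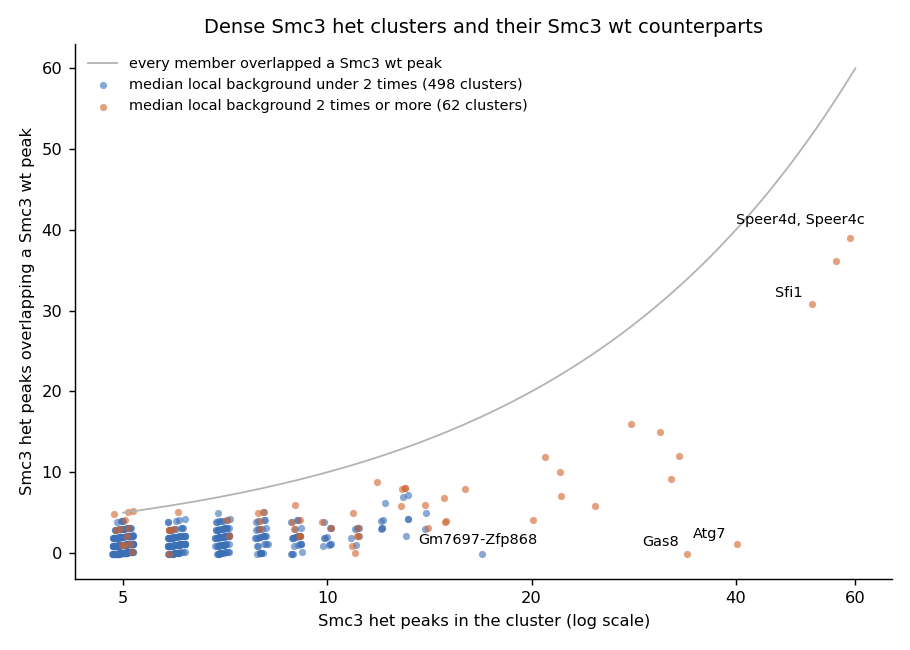
Number of members of each of the 560 clusters (x axis, log scale) against the number of them that overlapped a Smc3 wt peak (y axis), with a small random diagonal shift to separate points; colour marks a median local background of 2 times or more, and the line is where every member is shared. The Speer4d and Speer4c cluster reaches 39 shared of 59, while Atg7 has 1 of 40 and Gas8 0 of 34.

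No Smc3 wt peak lay in 18.04% (14.9 to 21.5) of the 560 clusters. These clusters held 627 members with a median -log10 q of 4.93, against 6.55 for the 3430 members of the other clusters, and their strongest members were weaker, with a median -log10 q of 11.8 against 21.8. After Gas8 the largest were a run of 17 peaks between Gm7697 and Zfp868 on chromosome 8, with a -log10 q of at most 9.74, and 11 peaks between Zfp980 and Zfp987 on chromosome 4, in a zinc finger family with a local background of 2.90 times. Then followed 9 peaks between Syf2 and Runx3, 9 at the zinc finger gene Zfp990 and 9 inside Spred2. A further 181 clusters had exactly 1 shared member. At the other end, 9 clusters had at least 80% of their members shared and 3 had all of them. The 3 were clusters of 5 members each between Eapp and Snx6, in Tex14 and at Duxf3, with 5, 5 and 8 Smc3 wt peaks and a median local background of 2.46, 2.07 and 7.38 times. Between Sall3 and Galr1, 4 of 5 were shared at a background of 4.96 times, and between Mreg and Pecr 4 of 5 at 1.80 times.

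Clusters of low local background lay at several blood transcription factor genes. Runx3, a RUNX factor of lymphoid and myeloid cells, had a pair of large clusters in and around it. The cluster from 135152024 to 135206627 on chromosome 4 overlaps the 3′ part of the gene (135120645 to 135177990) and runs past its end, with 10 members of which 2 were shared. Its strongest member, at 135206053 to 135206627, had a -log10 q of 40.9 and an authors' fold of 6.52 in Smc3 het, and the Smc3 wt peak there had 14.2 and 4.51. The other shared member had a -log10 q of 6.44 in Smc3 het and 7.498 in Smc3 wt. As read depth is unknown, such pairs of values do not measure a difference between genotypes. The 8 unshared members ranged from 3.21 to 8.61. On the other side of the gene, 22447 bp away, the cluster of 9 members had no Smc3 wt peak, although its strongest member (135069786 to 135070178) reached a -log10 q of 21.4 and a fold of 4.61.

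Erg and Fli1, ETS factors of stem cells and megakaryocytes, each held a cluster inside the gene without any Smc3 wt peak. The Erg cluster (chromosome 16, 95432342 to 95464883) had 9 members, with a -log10 q from 2.81 to 11 and a fold from 2.34 to 3.26. The Fli1 cluster (chromosome 9, 32501012 to 32521991) had 7, with a -log10 q of 4.93, 5.46, 17.2, 10.03, 4.001, 3.21 and 10.7 in order along the chromosome. The third reached the highest value. Ets1, another ETS gene, lay 114250 bp from the cluster.

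Spred2, which encodes an inhibitor of RAS and ERK signalling, held 9 members and no Smc3 wt peak (chromosome 11, 19961066 to 19998305). Their -log10 q reached 16.1, 15.4 and 14.1 at the 3 strongest, and the median local background was 1.02 times. Meis1, a stem-cell homeobox gene, is the next protein-coding gene on 1 side, but 941415 bp away. The cluster next to Runx1 (92861716 to 92884420 on chromosome 16) lay 35642 bp from the gene with 6 members, of which 1 was shared. Its strongest member, at 92873959 to 92874293 with a -log10 q of 19.5, had no Smc3 wt counterpart, while a weaker one of 15.9 did.

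Stat5a, Cdkn1a and Fosb held clusters in which the strongest members were shared. The cluster over Stat5b and Stat5a on chromosome 11 had 9 members and 1 Smc3 wt peak, at the Stat5a start window shown above (-log10 q 38.7 in Smc3 het and 12.9 in Smc3 wt). The 8 unshared members lay between 2.41 and 14.7. The cluster over Cdkn1a, which encodes the cell cycle inhibitor p21, had 13 members of which 7 were shared, and 8 Smc3 wt peaks. Each of its 6 members with a -log10 q over 10 was shared, and the widest (29105791 to 29108808) overlapped 2 Smc3 wt peaks. At Fosb, an AP-1 gene, 5 of 8 members were shared.

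**Figure D4:**
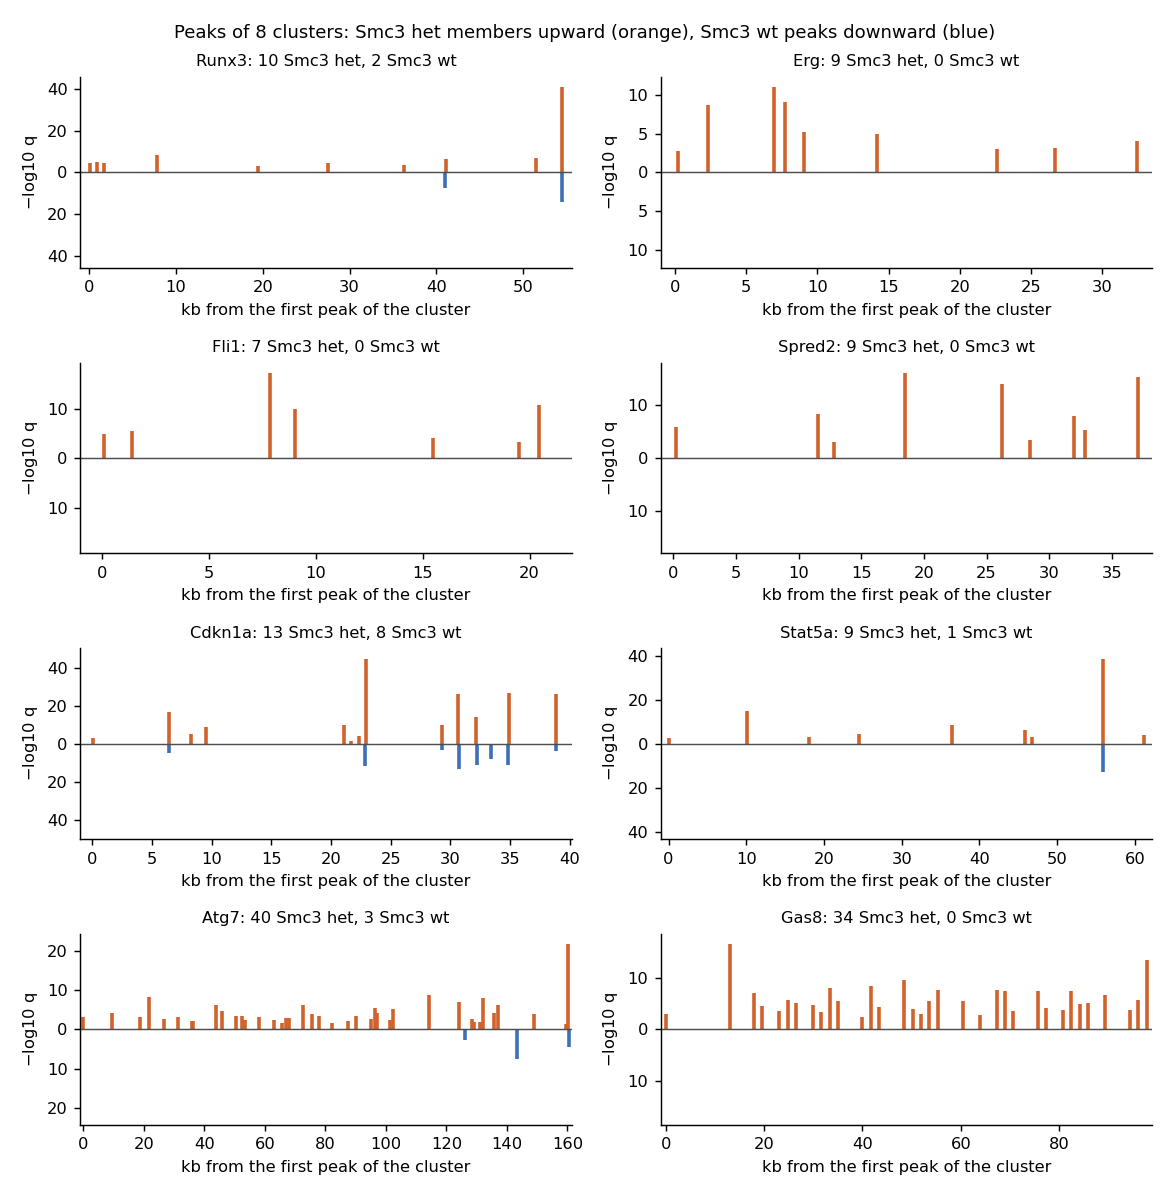
Peaks of 8 clusters by distance from the first peak of the cluster (x axis, kb), with -log10 q (y axis) drawn upward for Smc3 het members and downward for Smc3 wt peaks. Heights do not measure a difference between genotypes, as read depth is unknown. Erg, Fli1, Spred2 and Gas8 have no Smc3 wt peak, Cdkn1a has 8 for 13 members, and the Atg7 and Gas8 clusters are long runs of weak peaks.

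Among the lists of genes, that of ETS and stem-cell transcription factors had the highest share in or next to a cluster, at a count that changed with the settings. A gene counts as in a cluster when its span overlaps it, and as next to it when it is the nearest protein-coding gene on either side. Of 20556 protein-coding genes 1455 (7.08%) were in or next to a cluster and 539 (2.62%) in one. The share was higher for long genes, from 3.94% of the shortest 20% to 9.44% of the longest 20%. Of the 15 ETS and stem-cell factors 8 were in or next to one (53.3%, interval 26.6 to 78.7), namely Fli1, Erg, Elf1 and Tal1 in and Ets1, Ets2, Runx1 and Meis1 next to. Fli1 and Ets1 were counted through the same cluster, and Erg and Ets2 also shared one, so these genes are not independent. Ets2 lay 93643 bp from its nearer cluster, Ets1 114250 bp and Meis1 941415 bp from theirs. With nearest genes only within 50 kb the count of 8 became 5, while that over all genes became 1088. With overlapping genes only the counts were 4 and 539, and with gaps of 5 kb 3 and 229. A -log10 q of at least 5 gave 2 and 400, and 10 or more peaks per cluster 0 and 150. Both were 0 with a fold of at least 5. With gaps of 25 kb they rose to 11 and 4058. The median length of these 15 genes was 101318 bp, against 17578.5 bp over all genes. The Elf1 cluster had 8 members and no Smc3 wt peak. The Tal1 cluster had 6 members, none shared, and 1 Smc3 wt peak. Of the 6 core-binding factor and inv(16) partner genes 3 were in or next to a cluster (Runx1, Runx2 and Runx3), while Cbfb and Myh11 were not. The groups of distal peaks within 100 kb of Cbfb, Myh11 and Myc held at most 2, 1 and 2 peaks.

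The cell cycle, immediate early, stem-cell and signalling lists stood lower than the ETS and stem-cell transcription factors. Above the 7.08% over all genes lay the intervals of cell cycle (27.8%, 9.69 to 53.5) and immediate early genes (27.3%, 10.7 to 50.2). The stem-cell interval (20.7%, 7.99 to 39.7) also lay above it, while the signalling interval (15%, 3.21 to 37.9) included it. Of 29 stem-cell and self-renewal genes 6 were in or next to a cluster, among them Hoxa9 and Hoxa10, which share a cluster of 5 with 1 shared member. Of 18 cell cycle regulators 5 were, with 2 of 5 members shared at Cdk6, a kinase of G1 phase. Next to the proliferation marker Mki67 lay 2 clusters of 7 members, 22319 bp and 72823 bp away, with 2 shared in each. Of 22 AP-1 and immediate early genes 6 were, with 3 of 6 members shared at Btg2 and 4 of 10 next to Atf3. Of 20 kinase, RAS and JAK-STAT genes 3 were, namely Stat3, Stat5a and Stat5b at the same cluster. Of 20 interferon and inflammatory genes 2 were, Tnf with 5 members and Ccl3 with 6. Smc3 itself was next to a cluster of 7 members, of which 3 were shared, at a distance of 154073 bp inside another gene, Rbm20. The loader gene Mau2 was the other of the 2 among 12 cohesin genes.

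In each list of markers of cell types that the marrow could hold, 0 to 4 genes were in or next to a cluster. The share over all protein-coding genes was 7.08%. The interval of the megakaryocyte markers lay above it (33.3%, 9.92 to 65.1), and those of the other marker lists included it. Fewer markers had a gene-end peak in the shorter Smc3 wt list. A gene-end peak has its summit within 1 kb of either end of the gene. Over all protein-coding genes the Smc3 het list, of 47233 peaks, had one at 53.6% and the Smc3 wt list, of 14830, at 39.4%. A gene-end peak was found at 7 of 15 stem and progenitor cell identity markers in Smc3 het (among them Kit, Cd34 and Gata2) and at 3 in Smc3 wt (Kit, Meis1 and Ctnnal1). It was found at 9 and 2 of 14 monocyte and macrophage markers, 8 and 2 of 12 dendritic cell markers, 6 and 3 of 14 granulocyte-monocyte progenitor markers and 8 and 5 of 12 megakaryocyte markers. It was found at 3 and 1 of 12 neutrophil, 3 and 1 of 11 B cell, 2 and 1 of 14 T and NK cell and 3 and 0 of 12 stromal and endothelial markers, at 10 and 10 of 12 housekeeping genes and at 3 and 0 of 16 genes of unrelated tissues. Erythroid markers had one at 5 and 3 of 10, and mast cell, basophil and eosinophil markers at 5 and 2 of 12. The part of a different cell mixture in the clusters was not tested. Of 12 megakaryocyte markers 4 were in or next to a cluster, with 7 unshared members at Zfpm1, a GATA1 cofactor, and 5 unshared next to the integrin gene Itgb3. Of 14 granulocyte-monocyte progenitor markers 3 were. At Fcgr3, an Fc receptor gene, 3 of 9 members were shared and the local background was 4.99 times in Smc3 het and 3.55 times in Smc3 wt. At Cd33 1 of 6 was shared. Of 14 monocyte and macrophage markers 3 were, none of them in a cluster, with 1 of 9 members shared next to Cx3cr1 and 2 of 8 next to Ly86. Of 12 dendritic cell markers 3 were (3 of 5 members shared at Batf3, 3 of 8 next to Xcr1, 0 of 5 at Cd74), and of 10 erythroid markers 2 (Tfrc and Sptb). Of 14 T and NK cell markers 2 were (Ets1 and Id2), and Mmp9 and Hdc were the only ones of the 12 neutrophil and of the 12 mast cell, basophil and eosinophil markers. None of 12 stromal and endothelial markers was. Of 15 stem and progenitor cell identity markers 1, Meis1, was, so Kit, Cd34 and the others had no such cluster. Of 12 housekeeping genes 1 (Ywhaz) and of 16 genes of unrelated tissues 1 (Olig2) were.

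**Figure D5:**
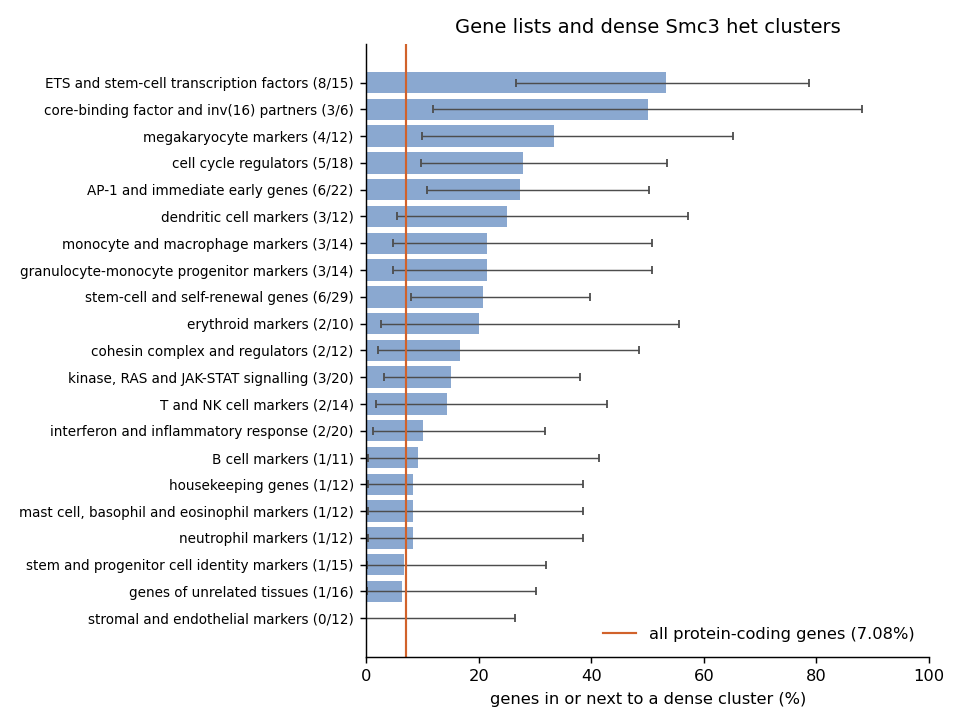
Percentage of the genes of each list that were in or next to a dense cluster (x axis, bars from 0) with exact 95% intervals, and the share over all protein-coding genes (line, 7.08%). The list of ETS and stem-cell transcription factors stands at 53.3%, and most intervals include the line.

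Genes in or next to a cluster more often carried a peak at their ends that the Smc3 wt list lacked. A gene-end peak was in both lists at 43.6% (41.1 to 46.2) of the 1455 genes and in that of Smc3 het alone at 21.6% (19.5 to 23.8). Over the other 19101 genes the shares were 38.8% (38.1 to 39.5) and 14% (13.5 to 14.5). The rule kept gene-end peaks out of the clusters, but both come from the same Smc3 het list. Of the members 53.1% had their summit inside a protein-coding gene, against 50.4% of other distal peaks. Members between genes were shared more often (31.3%, 29.2 to 33.4) than those inside a gene (24.1%, 22.3 to 26.0), while for other distal peaks it was the reverse (15.9% and 20.7%).

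The same rule applied to the Smc3 wt list gave 28 clusters with 299 members, 4.18% of its 7145 distal peaks. Of these 28 clusters 27 overlapped a Smc3 het cluster, and of the 560 Smc3 het clusters 27 overlapped one of them. The exception lay at Sprr2a2, a gene of the skin's cornified envelope family on chromosome 3, with 5 Smc3 wt peaks. The Smc3 het list is longer, so the rule was also applied to its 14830 most significant peaks, the length of the Smc3 wt list. That gave 21 clusters with 165 members, or 2.27% of the distal peaks. Of the 21 clusters 12 overlapped a Smc3 wt cluster, and 11 of the 28 Smc3 wt clusters overlapped one of them. At equal length the Smc3 het list thus gave fewer dense clusters than the Smc3 wt list. With the cut by fold there were 7. The median local background was 2 times or more in 22 of the 28 and 16 of the 21. A cluster over Cdkn1a was in both sets, and one over Fcgr3 in the shortened Smc3 het list but not in the Smc3 wt list. The span of the Fcgr3 cluster nevertheless held 5 Smc3 wt peaks. Erg, Fli1, Spred2, Runx3, Atg7 and Gas8 had none in the shortened list.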

How the data were processed

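The files hold 1 peak list for each genotype, in the 10-column narrowPeak layout, and no value per library. Bowtie2, MACS2 and mm10 are named as aligner, peak caller and build per the submitters' processing notes, without versions or filters, and the sources used here do not say whether libraries were pooled. The lists were tied to genotypes by the names in them. The authors' deposited score was not used to choose members. The authors' fold, a ratio, sets summit pileup against background. The authors' -log10 p and -log10 q belong to single peaks and were ranked within 1 list only. Where values of both lists stand side by side, they do not measure a difference in accessibility. Read depth is unknown.

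The members and gene lists were chosen with earlier results of these data known. Gene spans came from a RefSeq table of GRCm38.p6 (no strand), less 105 protein-coding genes placed before 3 Mb. Overlap needed 1 bp. The local background b was solved from the authors' fold, (k + 1)/(b + 1), and the Poisson p-value of pileup k, and divided by the genome-wide value (10.6 in Smc3 het, 8.65 in Smc3 wt); k fell within 0.05 of a whole number at 99.8% and 99.5% of peaks. Stitching, overlap and background were tested on simulated data and recovered 100%. Shares carry exact Clopper-Pearson 95% intervals, which cover counting error only. With 1 list per genotype no test was possible. Python 3.11.15, numpy 2.4.6, pandas 2.3.3, scipy 1.17.1, matplotlib 3.10.9 and bedtools 2.31.1 were used.

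The text names the 12 clusters with most members, 5 of the largest without a Smc3 wt peak, 5 with at least 80% of members shared, up to 3 genes per list by cluster size, and Smc3, Fli1, Runx1, Cbfb, Myh11 and Myc. Elf1, Tal1, Morrbid, Mir22hg, the microRNAs and the remaining called ETS genes were named after their values were seen. The result for 1 gene of the lists is not reported here.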

Additional observations from a re-analysis of the deposited data

How the results depend on the processing

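No paired analysis was possible because each genotype has 1 peak list and no value per library. A replicate block was not run, and no list without 1 library was made.

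With gaps of 5 kb there were 122 clusters, with 35.5% of members and 19% of other distal peaks shared, a difference of 16.5 percentage points, and 229 genes in or next to them. With gaps of 25 kb there were 1269, with 23.8% and 17.6% (6.23 points), 4058 genes and 58 Smc3 wt clusters. With 10 or more peaks per cluster there were 63, with 35.6% and 18.9% (16.7 points), 4.76% of them without a Smc3 wt peak, 150 genes and 10 Smc3 wt clusters. At a distance of 2.5 kb from gene ends 17.7% of the other distal peaks were shared. With a -log10 q of at least 5 there were 153 clusters, with 36.8% and 22.5% (14.3 points), 400 genes and 17 Smc3 wt clusters. With a fold of at least 5 there were 0 clusters in both lists and 0 genes, and 34.7% of the distal peaks were shared. Counting Smc3 wt peaks within 500 bp gave 31.5% and 19.3% (12.2 points). In the Smc3 het list of equal length by -log10 q the shares were 78.2% and 61.6% (16.6 points). Its 21 clusters became 7 by fold, 6 and 51 with gaps of 5 and 25 kb, and 4 with 10 or more peaks. With only overlapping genes counted there were 539.

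Chosen after seeing the data: without clusters of local background 2 times or more the share was 23.3% (4.95 points above the others). With only peaks under 1.2 times it was 14.5% against 14.5%, and the difference reversed to -0.0153 points. With only peaks of 1.2 times or more it was 37.7% against 41.5%, and the difference reversed to -3.8 points. Weighting the other peaks to the members' bands gave 21.3% by -log10 q (6.13 points) and, as planned, 15.8% by fold (11.7 points). The difference kept its sign under all alternatives that gave one except the 2 that split the peaks at 1.2 times. The count of ETS and stem-cell factors fell under 6 alternatives, from 8 to between 0 and 5, and rose to 11 with gaps of 25 kb. Because gap, peak number and threshold set the clusters themselves, their number follows these settings. Depth is unknown, and a peak missing from the Smc3 wt list may be below its threshold.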

Other observations

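The X chromosome, outside the rule, held 9 clusters of Smc3 het peaks by the same steps, with 93 members of which 35 were shared (37.6%, interval 27.8 to 48.3), against 14.4% (12.2 to 16.8) of its 923 other distal peaks. The largest, with 21 members each, lay at Mid1 (15 shared, local background 4.96 times the genome-wide value) and beyond Asmt (8 shared, 2.35 times), near the far end of the chromosome. A cluster of 5 inside Bcor, which encodes a corepressor of BCL6, had no Smc3 wt peak and a local background of 1.03 times. The Smc3 wt list held 3 such clusters on X, with 27 members.

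Other clusters of 7 to 14 members with low local background lay at genes that no list holds, chosen after their values were seen. At Tnfrsf8, which encodes the lymphocyte receptor CD30, 3 of 14 members were shared at a background of 1.14 times. Near Bcl3, an atypical inhibitor of NF-κB, 4 of 13 were shared at 1.08 times. Inside Bach2, a transcriptional repressor of lymphoid cells, 8 members had no Smc3 wt peak at 1.00 times, and inside Smad3, a mediator of TGF-β signals, 7 had none at 1.22 times. The 9 members at Tmem267 on chromosome 13 had a median local background of 12.9 times in Smc3 het, the 7 Smc3 wt peaks there had 3.97 times, and the 6 of them that are distal had 7.89 times.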
